A study of Mus musculus with 16 samples.

Results

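The peaks described here lie at the loci of Sfrp2 and Tnc, which encode secreted proteins of stromal cells. They were chosen by position, as every peak that overlapped chr3:83560000-83590000 (Sfrp2, 30001 bp) or chr4:63615000-63720000 (Tnc, 105001 bp) in mm9. These places had themselves been selected on measured values, the H3K36me3 and H3K4me3 differences between genotypes in the same lists, so every KO and WT value at them is a description and carries no test. Of 289751 peaks in 24 lists, 27 overlapped the windows, 13 at Sfrp2 and 14 at Tnc. The cells were immortalized monoclonal lines of mesenchymal stem cells (MSCs) of C57BL/6 mice, either without Dicer (Dicer -/-, called KO) or with floxed, uncut Dicer (Dicer f/f, called WT). To compare chromatin with and without Dicer, each of 3 histone marks was measured by ChIP-seq in 2 KO and 2 WT libraries. For every library there was a peak list called against whole-cell extract, and also a difference list, which is read here as peaks over the other genotype. The labels do not name the control of the difference lists, nor say how many clones or cultures the replicates stand for, so a difference between clones and one between genotypes cannot be told apart.

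Sfrp2, secreted frizzled-related protein 2, binds Wnt ligands outside the cell through a domain like that of the Frizzled receptors and so modulates Wnt signalling. Tnc, tenascin-C, is a large glycoprotein of the extracellular matrix, abundant in embryonic mesenchyme, healing wounds and tumour stroma and sparse in most resting adult tissue. H3K4me3 marks the promoters of active and poised genes, H3K36me3 is laid down over gene bodies as they are transcribed, and H3K27me3 is the mark of Polycomb repression. Dicer is the enzyme that trims precursor hairpins to mature microRNAs.

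The RefSeq annotation at hand was of the build GRCm38.p6, not of mm9, so no gene position was carried over to the peaks. It places Sfrp2 on the plus strand, over 8565 bp, with no other gene on the same bases. Tnc lies on the minus strand over 87231 bp and shares its span with the lncRNA gene 8030451A03Rik, whose marks cannot be told apart from those of Tnc. The order of the marks followed these strands. At Sfrp2 the H3K4me3 peaks lay at the lower coordinates and H3K36me3 extended to higher ones, and at Tnc the order was the opposite. The assignment to the genes rests on the windows, on these strands and on the lengths given below.

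The bases before each start of transcription are shown because the H3K4me3 peaks mark the promoter end of each gene. They are RefSeq promoter sequences of GRCm38.p6, 250 bases before to 50 bases after the start, from chr3:83766071-83766370 on the plus strand for Sfrp2 and chr4:64046887-64047186 on the minus strand for the more downstream of the 2 listed starts of Tnc. Capitals mark the octamer ATGCAAAT on either strand, and the TATA-like words TATAAA and TATATAA.
Sfrp2 promoter: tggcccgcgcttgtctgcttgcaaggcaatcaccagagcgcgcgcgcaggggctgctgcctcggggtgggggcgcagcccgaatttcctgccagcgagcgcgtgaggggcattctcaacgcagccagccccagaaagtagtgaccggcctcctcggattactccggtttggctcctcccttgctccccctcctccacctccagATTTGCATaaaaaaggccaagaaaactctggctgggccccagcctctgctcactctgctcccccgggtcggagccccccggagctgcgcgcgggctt
Tnc promoter: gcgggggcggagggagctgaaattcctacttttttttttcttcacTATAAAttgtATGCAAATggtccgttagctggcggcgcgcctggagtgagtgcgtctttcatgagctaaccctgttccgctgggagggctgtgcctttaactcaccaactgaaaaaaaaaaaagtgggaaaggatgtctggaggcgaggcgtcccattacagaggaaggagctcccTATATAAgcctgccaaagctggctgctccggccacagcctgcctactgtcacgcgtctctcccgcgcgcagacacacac

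Both promoters held the octamer ATGCAAAT, the word recognised by POU-domain factors, which 1.74% of 32851 mouse promoter windows of the same length held on either strand. In Sfrp2 it began 47 bases before the start, on the opposite strand, and in Tnc 195 bases before the start shown, on the strand of the gene. The Tnc window also held TATAAA 205 bases before its start and TATATAA 29 bases before it, words found in 13.6% and 3.24% of promoter windows. The Sfrp2 window held neither. Sfrp2 was the richer in G and C, at 66% with 22 CpG sites, against 54% with 16 CpG sites in the Tnc window and medians of 52.7% and 7 over all promoter windows. The words were chosen after the sequences were read, and a match describes letters only. The Tnc window at the other listed start, with 47.3% G and C and 10 CpG sites, held the octamer and TATAAA but not TATATAA.

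No list gave read counts, so the depth of every library was unknown. Deeper sequencing or stronger enrichment gives longer peak lists, and the part of this in the values below was not tested. Over chromosomes 1 to 19 and X, the KO lists against extract covered 32.2 and 52.7 Mb of H3K4me3 and the WT lists 25.0 and 44.1 Mb. For H3K36me3 the KO lists covered 87.0 and 110.2 Mb and the WT lists 108.2 and 176.6 Mb, and for H3K27me3 the KO lists covered 0.732 and 34.4 Mb and the WT lists 4.67 and 37.9 Mb, replicate 1 first. Replicate 2 thus listed more than replicate 1 in each mark and genotype, and KO listed more H3K4me3 but less H3K36me3 than WT in both replicates. With 2 libraries a genotype an exact two-sided permutation test cannot go below p = 0.333. A lower covered length can stem from fewer cells with the mark or from less of it per cell, and these cannot be told apart.

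At Tnc, H3K4me3 at the promoter end was narrower in both KO libraries than in either WT library. A single peak per library covered 1233 and 1941 bp in KO, against 3617 and 5785 bp in WT. The lengths did not overlap between genotypes. Their means were 1587 ± 501 bp in KO and 4701 ± 1533 bp in WT (SD, n = 2 each), a difference of -3114 bp, which was -2030 bp without WT replicate 2. Of 11070 tiles of the genome as long as this window and with any H3K4me3, 0.939% had more of it in both WT libraries than in either KO library. Since this contrast chose the locus, nothing is read from that share.

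**Figure D1:**
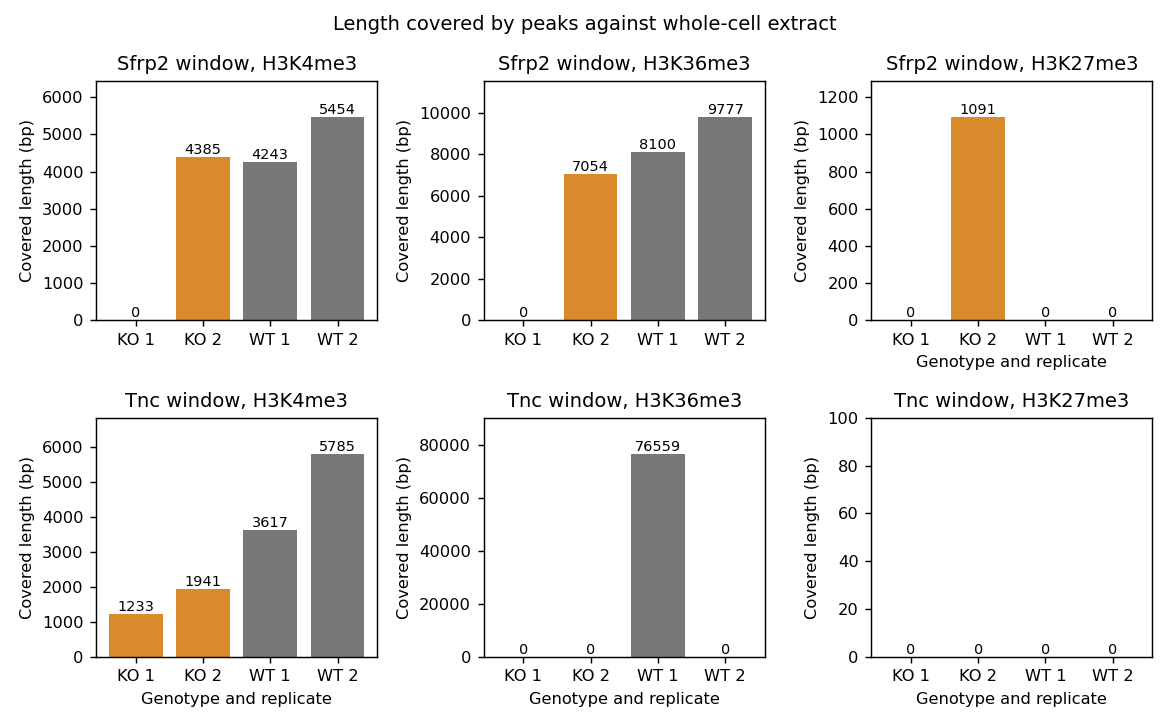
Length covered by peaks against whole-cell extract (y axis, bp, a separate scale per panel) in each library (x axis; KO in orange, WT in grey, by replicate), for each mark in the Sfrp2 window (top) and the Tnc window (bottom). At Tnc the H3K4me3 bars stand at 1233 and 1941 bp in KO and at 3617 and 5785 bp in WT, and the single H3K36me3 bar, at 76559 bp, is WT replicate 1.

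The Tnc H3K4me3 peaks differed more at the edge that faces the gene body than at the outer edge. The peaks ran over chr4:63707447-63708679 in KO replicate 1 and chr4:63706901-63708841 in KO replicate 2, against chr4:63705104-63708720 in WT replicate 1 and chr4:63703615-63709399 in WT replicate 2. On the side of the gene body, the KO edge stopped 2343 bp short of the WT edge in replicate 1 and 3286 bp short in replicate 2. On the upstream side the same distances were 41 and 558 bp. Across replicate numbers, KO replicate 1 stopped 3832 bp short of WT replicate 2 on the gene side, and KO replicate 2 stopped 1797 bp short of WT replicate 1. On the upstream side KO replicate 2 reached 121 bp farther than WT replicate 1. Every pairing of a KO with a WT library thus left a gap of at least 1797 bp on the gene side, and none more than 720 bp upstream.

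**Figure D2:**
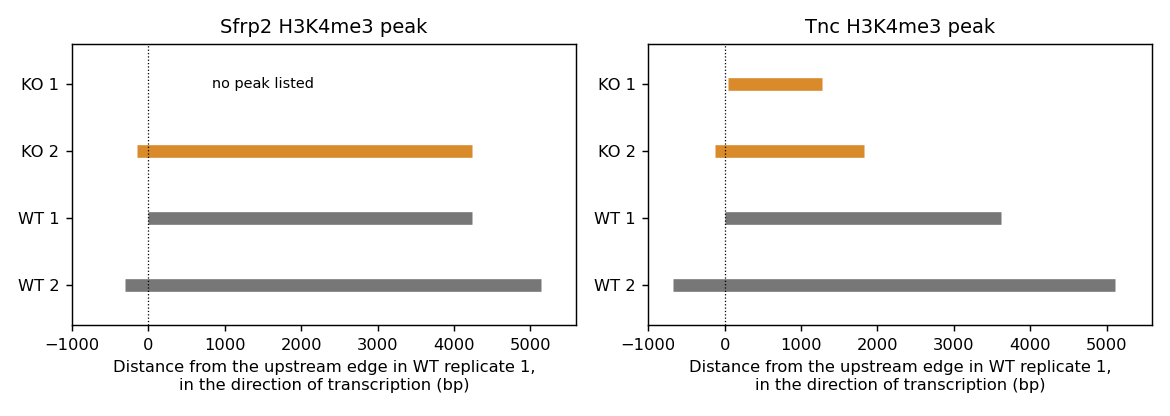
Extent of the H3K4me3 peak of each library (rows; KO in orange above WT in grey) at Sfrp2 (left) and Tnc (right). The x axis is the distance in bp from the upstream edge in WT replicate 1 (dotted line), in the direction of transcription. At Tnc the KO bars end 1797 to 3832 bp before the WT bars, while at Sfrp2 the bar of KO replicate 2 ends 3 bp before that of WT replicate 1 and KO replicate 1 lists no peak.

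The peak of KO replicate 1 was also a weak one. Its deposited score was 151.06, and 11.9% of the peaks in its list scored lower. The KO replicate 2 peak and both WT peaks carried 3100, the value at which 5144 to 10401 peaks of their lists stood, so the score cannot order these 3. By width the WT peaks ranked 829th of 12744 and 436th of 18322 in their lists, and the KO peaks 12118th of 16737 and 11275th of 23851. Tnc was thus marked by one of the broader H3K4me3 peaks of the WT lists and by a peak of ordinary or less than ordinary width in KO.

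Relative to other H3K4me3 regions, made by merging the peaks of the 4 libraries, the KO to WT ratio of covered length at Tnc was low. It was 0.341 in replicate 1 and 0.336 in replicate 2, or -1.55 and -1.58 on the log2 scale. The median ratio was 1.11 over the 11119 regions listed in both replicate 1 libraries and 1.04 over the 16897 listed in both replicate 2 libraries. A ratio as low as that of Tnc or lower was seen at 17 and 18 of these regions, 0.153% and 0.107%. Across replicate numbers the ratios were 0.213 for KO replicate 1 over WT replicate 2 and 0.537 for KO replicate 2 over WT replicate 1, so the likeness of the first pair of values depends on pairing by number. These ranks describe a region that had been picked for this difference.

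**Figure D3:**
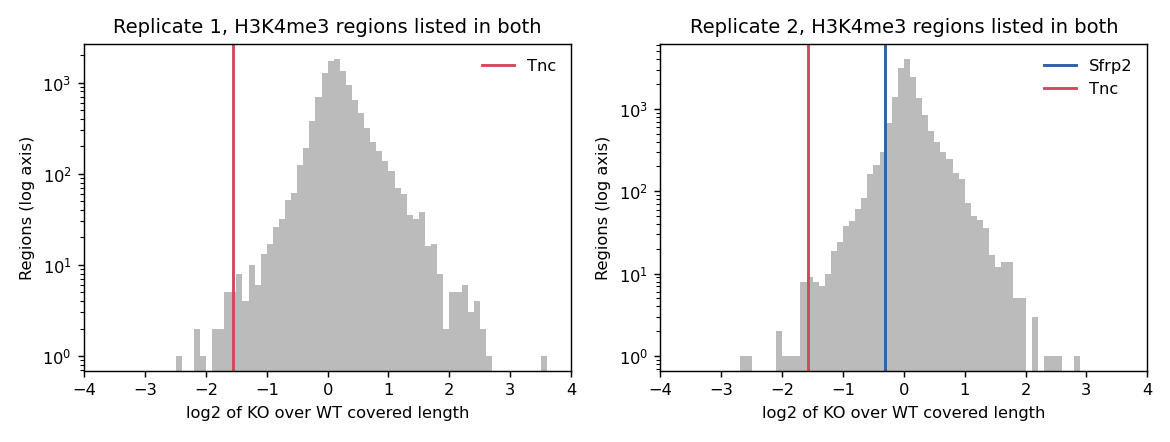
Number of H3K4me3 regions (y axis, log scale) by the log2 ratio of KO to WT covered length (x axis), over regions listed in both libraries of replicate 1 (left) and of replicate 2 (right). Tnc (red line) stands at -1.55 and -1.58, in the lower tail of both, and Sfrp2 (blue line, replicate 2) at -0.31.

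At Sfrp2, H3K4me3 was listed in KO replicate 2, in WT replicate 1 and in WT replicate 2, and not in KO replicate 1. It covered 0 and 4385 bp in KO, against 4243 and 5454 bp in WT. The genotypes overlapped, since KO replicate 2 covered more than WT replicate 1. The difference of the means was -2656 bp, and it was -463.5 bp without KO replicate 1 and -4848.5 bp without KO replicate 2. The WT peaks were broad, ranking 387th of 12744 and 555th of 18322 by width, and the KO replicate 2 peak ranked 1635th of 23851.

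Where the peak was listed in KO, its position was close to that in WT. It ran over chr3:83569102-83573486 in KO replicate 2, against chr3:83569247-83573489 in WT replicate 1 and chr3:83568937-83574390 in WT replicate 2. The gene-side edge of KO replicate 2 stood 3 bp short of WT replicate 1 and 904 bp short of WT replicate 2. The KO to WT ratio of replicate 2 was 0.804, and 5.56% of the 16897 regions listed in both libraries had a ratio as low. KO replicate 1 did list H3K4me3 nearby, with a peak at chr3:83593412-83594537 where the other 3 libraries also had one. Its peak there scored 272.85 and was the narrowest of them. It was 1126 bp wide, against 2530 bp in KO replicate 2 and 1833 and 2470 bp in WT. Regions listed in every library except KO replicate 1 numbered 483 of 25204, or 1.92%.

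The WT-higher calls were read from the difference lists, in which a region counts when it holds a peak of that list. The single H3K4me3 region of each window was called WT-higher in both replicates, 2 of 2 regions, against 1.12% of all 25204 H3K4me3 regions. Again this contrast chose the loci. At Tnc the WT difference peaks scored 3100 in both replicates, a value reached by 31 of 1867 and 61 of 1334 peaks of those lists. At Sfrp2 the replicate 1 difference peak likewise scored 3100, whereas the replicate 2 peak scored 278.03, with 55.9% of its list below it. Within the difference lists, Tnc thus ranked near the top in both replicates and Sfrp2 near the top in replicate 1 and mid-list in replicate 2.

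H3K36me3 over Sfrp2 followed the H3K4me3 listing. It covered 0 and 7054 bp in KO, against 8100 and 9777 bp in WT, of which 840 bp in WT replicate 2 belonged to a separate peak at the window's edge, chr3:83589161-83592214. The genotypes did not overlap, but neither did they in 33.2% of the 16758 tiles of 30 kb with any H3K36me3, in which both WT libraries covered more than both KO libraries. The means were 3527 ± 4988 bp in KO and 8938.5 ± 1186 bp in WT (SD, n = 2 each). Their difference of -5411.5 bp was -1884.5 bp without KO replicate 1 and -8938.5 bp without KO replicate 2.

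**Figure D4:**
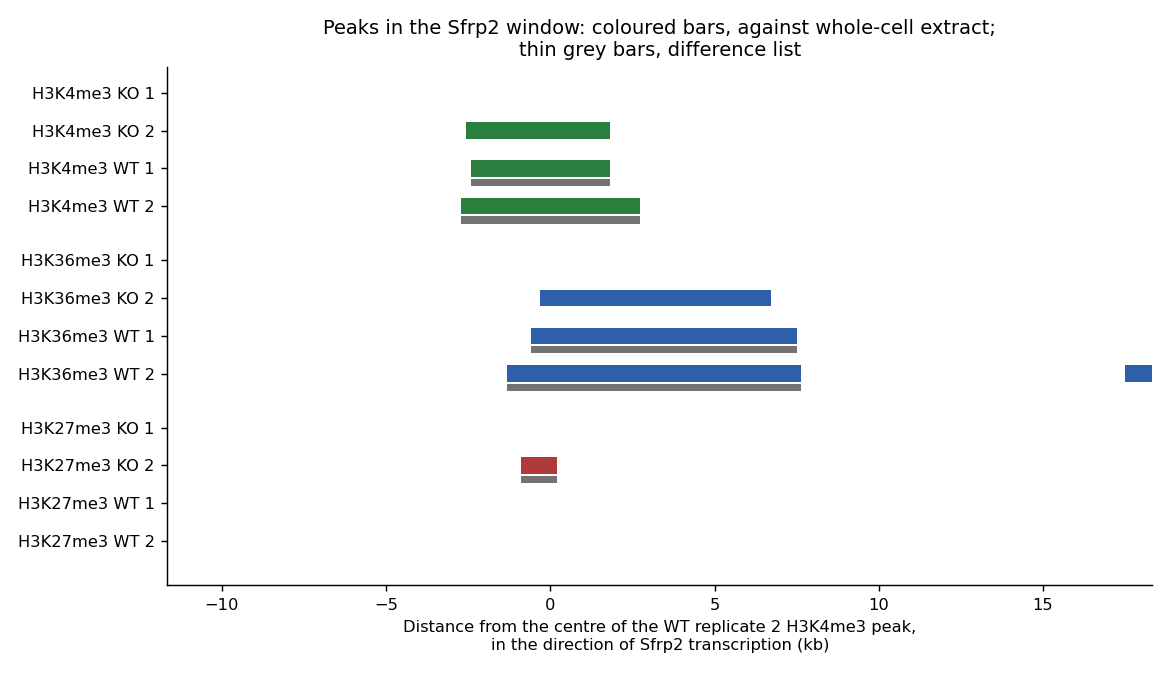
Peaks in the Sfrp2 window by library (rows, KO above WT within each mark), as coloured bars for the lists against whole-cell extract and thin grey bars for the difference lists. The x axis is the distance in kb from the centre of the WT replicate 2 H3K4me3 peak, in the direction of transcription. KO replicate 1 has no bar, and KO replicate 2 has bars for all 3 marks, among them the 1091 bp H3K27me3 peak inside the H3K4me3 peak.

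The main H3K36me3 peak ran over chr3:83571334-83578387 in KO replicate 2, against chr3:83571063-83579162 in WT replicate 1 and chr3:83570346-83579282 in WT replicate 2. The KO peak was shorter at its downstream end by 775 and 895 bp and at its upstream end by 271 and 988 bp, relative to WT replicates 1 and 2. Its ratio to WT in replicate 2 was 0.789, above the median of 0.715 over the 17993 regions listed in both replicate 2 libraries, so this shortening was no more than that of the typical region. From the outer edge of H3K4me3 to the far end of H3K36me3 the marks spanned 9286 bp in KO replicate 2, against 9916 and 10346 bp in WT, beside the gene's 8565 bp. H3K4me3 and H3K36me3 shared 2153 bp in KO replicate 2, against 2427 and 4045 bp in WT.

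By score, the Sfrp2 H3K36me3 peak ranked high in both WT lists. It scored 3100 in each, the value at which 754 and 2563 peaks of these lists stood, so it was tied with them. In the extract lists 97.8% and 92.6% of WT peaks scored lower, against 83.7% in KO replicate 2. The difference lists called it WT-higher in both replicates, with 99.9% and 99.0% of their peaks scoring lower. Of the 5 H3K36me3 regions in the 2 windows it was the only one called in both, against 1.24% of all 39794 regions. This contrast, too, chose the loci. In KO replicate 1, the nearest H3K36me3 peaks to the Sfrp2 window lay 683.1 kb below and 135.6 kb above it. KO replicate 2, which listed the Sfrp2 peak, had its nearest peaks outside the window at similar distances, 683.2 kb below and 112.3 kb above. In WT replicates 1 and 2 the nearest peaks were closer, 406.8 and 398.7 kb below and 49.3 and 49.4 kb above. The pattern of a region listed everywhere but in KO replicate 1 was seen for 2899 of 39794 H3K36me3 regions (7.29%).

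KO replicate 2 also listed H3K27me3 at Sfrp2, the only H3K27me3 peak in either window. It covered 0 and 1091 bp in KO, against 0 and 0 bp in WT. The peak, chr3:83570771-83571861, lay wholly within the H3K4me3 peak of KO replicate 2 and shared 528 bp with its H3K36me3 peak. Of the 17491 H3K27me3 peaks of KO replicate 2, 1357 met H3K4me3 (7.76%), 8 met H3K36me3 (0.0457%) and 2 met both, the Sfrp2 peak being one. In WT replicate 2 the same counts were 2001, 22 and 11 of 14932 peaks. The difference list of KO replicate 2 held this peak as KO-higher, as it did a peak in 13.6% of all 24016 H3K27me3 regions.

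The H3K27me3 peak was weak and rested on 1 library. Its score of 112.78 exceeded that of 25.7% of its list, and it was absent when peaks scoring below 160 were dropped. KO replicate 1 had 706 H3K27me3 peaks in all and thus could show little. WT replicate 1 was limited too, with 2562 such peaks against 14955 in WT replicate 2. Peaks of separate marks in a list of a bulk population can come from different cells or alleles, so overlap does not place the marks on the same nucleosome.

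Over Tnc, H3K36me3 was listed in WT replicate 1 alone. It covered 0 and 0 bp in KO, against 76559 and 0 bp in WT, the last being WT replicate 2. In WT replicate 1 it filled 72.9% of the window with 3 peaks, chr4:63620006-63659265, chr4:63659788-63689839 and chr4:63695729-63702975. They were 39260, 30052 and 7247 bp wide, the first ranking 28th and the second 95th of 38683 peaks by width. From the outer edge of H3K4me3 to the far end of H3K36me3, the marks of WT replicate 1 spanned 88715 bp, close to the 87231 bp of the Tnc gene. Unlike at Sfrp2, they did not overlap, and the nearest edges of H3K4me3 and H3K36me3 stood 2128 bp apart.

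**Figure D5:**
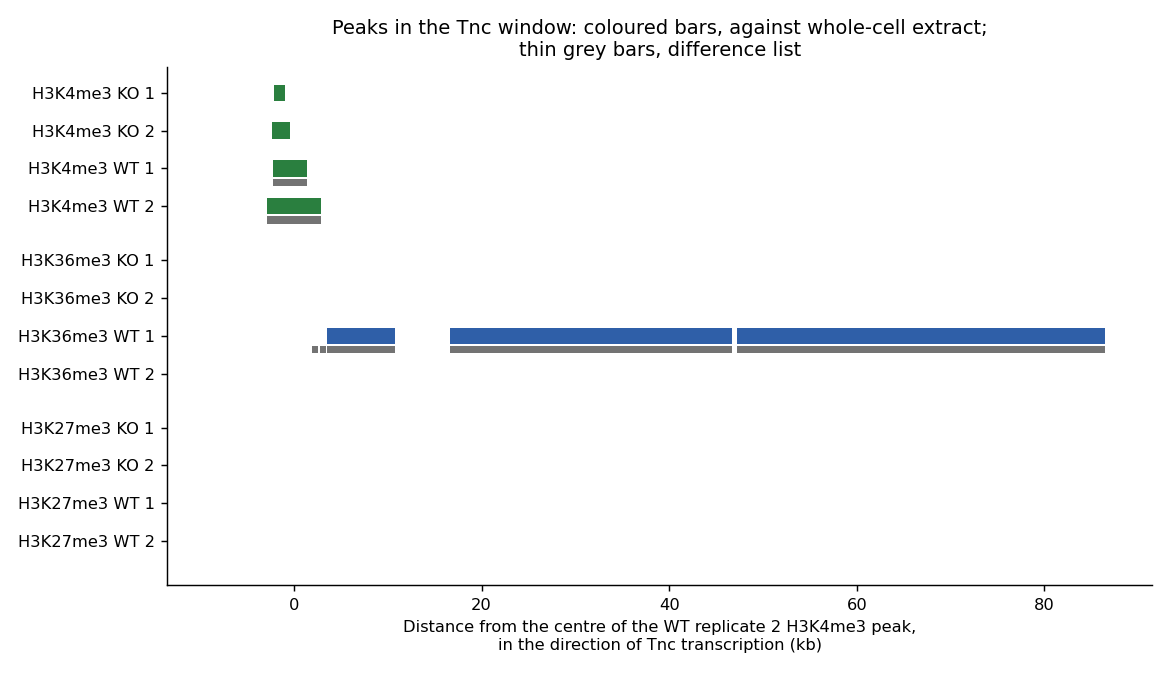
Peaks in the Tnc window by library (rows, KO above WT within each mark), as coloured bars for the lists against whole-cell extract and thin grey bars for the difference lists. The x axis is the distance in kb from the centre of the WT replicate 2 H3K4me3 peak, in the direction of transcription. H3K4me3 is listed in all 4 libraries and is widest in WT, whereas H3K36me3 over the gene body is listed in WT replicate 1 only.

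The 2 replicates of WT therefore disagreed on Tnc H3K36me3, and the mean difference of -38279.5 bp was 0 bp without WT replicate 1. The pattern of a region listed in WT replicate 1 alone was seen for 1150 of 39794 H3K36me3 regions (2.89%). Over the genome WT replicate 1 listed 38683 H3K36me3 peaks and WT replicate 2 38104, over a longer total length in replicate 2, and the part of depth or enrichment in the disagreement was not tested. WT replicate 2 did list the broad H3K4me3 peak at Tnc, wider than that of WT replicate 1. Its nearest H3K36me3 peaks lay 374.9 kb below and 1068 kb above the window.

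Few wide H3K36me3 peaks stood in 1 library alone. The KO lists held 38 and 143 peaks of 30 kb or more, and the WT lists 95 and 552. Of all these, the 2 widest Tnc peaks of WT replicate 1 were the only ones with no H3K36me3 at all in the other 3 libraries, a count made after their values were seen. The cut of 30 kb lay just under the narrower of the 2, at 30052 bp. They were also neighbouring pieces, the first ending at chr4:63659265 and the second starting at chr4:63659788, so nothing is read from this count. At 20 kb or more there was 1 further peak, so that 3 of the 332 peaks of WT replicate 1 stood alone and none of the 186, 433 and 1435 peaks of KO replicates 1 and 2 and WT replicate 2.

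The 2 lists of WT replicate 1 ranked these peaks very differently. Against extract, the 39260 bp and 30052 bp peaks scored above 27.7% and 52.2% of their list, and the 7247 bp peak nearest the promoter above 93.4%. In the difference list, with the same coordinates, they scored above 98.9%, 99.8% and 99.6%, and the 39260 bp peak was the widest of its 3301 peaks. The difference list added 2 short peaks on the promoter side, chr4:63703111-63703759 and chr4:63703927-63704607, which had no counterpart against extract. These were the only 2 of the 12 difference peaks in the windows whose coordinates were not those of a peak against extract. Of the 5 H3K36me3 regions of the windows, the main Sfrp2 region and the 3 Tnc regions, 4 in all, were called WT-higher in replicate 1, against 5.76% of all H3K36me3 regions. The loci were chosen by this contrast, and the 3 Tnc regions were neighbouring pieces listed in WT replicate 1 only, so nothing is read from that share. None of the Tnc regions was called in replicate 2.

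No H3K27me3 peak was listed at Tnc in any library, in either kind of list. The nearest one in KO replicate 2 lay 735.2 kb below and 1449 kb above the window, and in WT replicate 2 294.3 kb below and 1611 kb above. The H3K27me3 list of KO replicate 1 held only 706 peaks, the nearest 986.6 kb below and 24618 kb above the window, so it could show little. That of WT replicate 1, with 2562 peaks, was limited too, the nearest lying 458.1 kb below and 18899 kb above. Whether H3K27me3 has a part in the narrow H3K4me3 of the KO libraries was not tested. H3K36me3 was unlisted at Tnc in WT replicate 2 as well as in KO. In the Sfrp2 window, KO replicate 1 listed none of the 3 marks and KO replicate 2 listed all 3. The H3K27me3 peak of KO replicate 2 was weak there, with a score of 112.78. Whether H3K27me3 at Sfrp2 goes with or against the other marks was not tested.

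Across the windows, 1 of the 12 difference peaks was KO-higher and 11 were WT-higher, where the WT lists held 46.0% of all difference peaks. Of these 11, 5 were the pieces of Tnc H3K36me3 in WT replicate 1, and the loci were chosen by this contrast. The share of 46.0% pools marks that lean apart. For H3K36me3 the WT difference lists held 3301 and 3524 peaks, against 2071 and 1011 in KO. For H3K4me3 they held 1867 and 1334, against 5687 and 6594 in KO, and for H3K27me3 1422 and 5186, against 113 and 4056 in KO. Of the 15 peaks against extract, 5 were in KO and 10 in WT libraries, where WT held 49.4% of all such peaks, and 3 of the 10 were the Tnc H3K36me3 peaks of WT replicate 1. KO replicate 1 had a single peak in the windows over all marks, the narrow H3K4me3 peak at Tnc. Neither locus had an H3K36me3 or H3K4me3 peak of a KO library in a difference list.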

How the data were processed

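ChIP-seq of H3K4me3, H3K36me3 and H3K27me3 in KO and WT MSC lines gave 12 libraries, 2 per mark and genotype; 4 whole-cell extract samples had no list of their own here. The submitters' processing notes name Bowtie 0.12.7, MACS (no version) and the build mm9. For each library the authors deposited a list against extract and a difference list, not pooled, with a score per peak of at least 80 whose formula is not given. Scores served only to filter and to rank within a list. Covered lengths are merged peak bases inside a window, computed with Python 3.11.15 and numpy 2.4.6. Regions are merged extract peaks of the 4 libraries of a mark on chromosomes 1 to 19 and X, called where a difference peak overlapped by at least 1 bp. Tiles are consecutive blocks as long as a window. The overlap code was tested on simulated lists. Replicate numbers were not shown to pair libraries. The members and the comparisons were chosen with earlier results of these data known. Alternatives were a score of at least 160, whole peaks, windows widened by 10 kb, each library left out, and pairing by number. No mm9 annotation was used, so other genes and marker loci were not analysed here. The named loci are the 2 the rule gives.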

Additional observations from a re-analysis of the deposited data

How the results depend on the processing

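Covered length, KO minus WT, was recomputed for both loci, all 3 marks and both kinds of list under each alternative, and no difference changed sign. Widening the Sfrp2 window by 10 kb took the H3K4me3 difference in the difference lists to -5765 bp, against -4848.5 bp, because a WT replicate 1 peak entered. A score of at least 160 dropped the Sfrp2 H3K27me3 peak, which left a difference of 0 bp against 545.5 bp. It also dropped the widest Tnc H3K36me3 peak (-18649.5 bp against -38279.5 bp in the lists against extract) and the KO replicate 1 H3K4me3 peak at Tnc (-3730.5 bp against -3114 bp). With 1 library left out, the ranges were -4198 to -2030 bp for Tnc H3K4me3, -4848.5 to -463.5 bp for Sfrp2 H3K4me3, -8938.5 to -1884.5 bp for Sfrp2 H3K36me3, 0 to 1091 bp for Sfrp2 H3K27me3 and -76559 to 0 bp for Tnc H3K36me3. With the replicate number as a block, each difference is the mean of the within-number differences and equals the unpaired one by construction (-3114 bp for Tnc H3K4me3). Neither fit carried a test. With scores of at least 160, the shares of regions called in both replicates were 6.05% for KO-higher H3K4me3 against 10.8%, 0.312% and 0.604% for KO-higher and WT-higher H3K36me3 against 0.668% and 1.24%, and 0.0679% for KO-higher H3K27me3 against 0.171%. Shares of WT-higher regions moved less for the other marks, at 0.836% against 1.12% for H3K4me3 and, as a rise, 3.88% against 3.76% for H3K27me3. The cause of these shifts was not tested. The unknown depth limits every statement that a peak was not listed.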

Other observations

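Within 10 kb outside the windows, H3K4me3 peaks lay on both sides of each locus, and no other mark was listed there apart from peaks that reached into a window. Beyond the promoter end of Tnc, a peak near chr4:63725868-63726982 covered 982 and 1115 bp in KO, against 0 and 1175 bp in WT. Downstream of Sfrp2, a peak near chr3:83592458-83594987 covered 1126 and 2530 bp in KO, against 1833 and 2470 bp in WT. At both, the KO and WT lengths overlapped, and the order of the genotypes by length in replicate 2 was the opposite of that in replicate 1. The difference lists held the peak beyond Tnc in KO replicate 2, with a score of 115.5. They held the peak downstream of Sfrp2 in WT replicate 1, with a score of 774.04, and neither peak in any other library. On the other sides, a peak beyond the far end of Tnc covered 0 and 535 bp in KO, against 0 and 641 bp in WT, and 1 upstream of Sfrp2 covered 0 and 1106 bp in KO, against 0 and 0 bp in WT. No gene was assigned to these peaks, and these differences were not tested.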
